A study of Mus musculus with 6 samples.

Results

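The Rac and Cdc42 genes of mouse platelets were followed in 7 rows of the deposited tables, taken by gene symbol out of 24346 symbols. These were the GTPase genes Rac1, Rac2 and Cdc42, the exchange factor genes Vav1 and Vav3, and the kinase genes Pak1 and Pak2. RNA came from blood platelets of wild-type mice and of mice labelled as homozygous for a Beta3(R734C) knock-in, with 3 libraries per genotype. R734C is a missense change in the cytoplasmic tail of integrin β3, which pairs with αIIb as the platelet fibrinogen receptor. The labels give no age, sex, strain or treatment, and do not say whether the libraries of a genotype came from separate or pooled animals, so the p-values speak only of the spread among these samples, and part of it could be technical. The comparison addresses which platelet mRNAs differ with this change, and the study's title names macrothrombocytopenia and the RhoA pathway.

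Rac1, Rac2 and Cdc42 are small GTPases that switch between an inactive GDP-bound and an active GTP-bound form and drive actin assembly, with Rac known for lamellipodia and Cdc42 for filopodia and polarity. Exchange factors of the Vav family load them with GTP once tyrosine kinases phosphorylate Vav downstream of platelet collagen and fibrinogen receptors. PAK kinases bind the GTP-bound forms and pass the signal on to the cytoskeleton. Integrin outside-in signalling in spreading platelets runs through these proteins, and megakaryocytes use them when they form platelets. All of this regulation acts on protein activity, which mRNA levels do not measure.

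The levels given are FPKM, fragments per kilobase of transcript after a scaling per library, so genes can be compared per length. The settings of that scaling are not given. Library depth was estimated from the steps between low values of genes with a single annotated transcript. It came to 7850000 to 9530000 fragments if the scaling was by library size. Between 8383 and 9006 symbols were above 0 in a library. Pearson correlations of log2 values across genes, which are not independent replicates, lay at 0.973 to 0.981 among wild-type libraries, at 0.956 to 0.978 among knock-in libraries and at 0.958 to 0.969 across genotypes. Platelet markers summed to 55656 to 58030 FPKM for the wild type, against 52567 to 58539 for the knock-in, with none of the 12 at 0 and 3 of the 12 called between the genotypes, against 8.36% of all tested genes. Haemoglobin mRNA made up 12.8% of total FPKM in wild-type library 1 and 20.4% in knock-in library 1, against 3.20% to 7.20% in the other 4 libraries. Of the leukocyte markers in the tables, 36 without Lyz2 and Nkg7 summed to 1.82 to 3.27 FPKM for the wild type, against 1.77 to 3.89 for the knock-in, and Cd3e, Cd3d, Ms4a1, Pax5, Elane and Mpo were listed at 0 in every library. The exceptions were Lyz2, at 7033 to 8240 and 7205 to 9127 FPKM, and Nkg7, at 2.67 to 4.42 and 4.68 to 8.83 FPKM (limma adjusted p = 0.151).

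The GTPase genes are close relatives, and their levels rest on telling their reads apart. Over the coding sequence of GENCODE M21 transcripts (GRCm38), 77.1% of aligned positions were identical between Rac1 and Rac2, and 65.9% between Rac1 and Cdc42. The longest run shared by the Rac1 and Rac2 transcripts was 29 bases, against 14 for Rac1 and Cdc42, 17 for Pak1 and Pak2 and 19 for Vav1 and Vav3. How the authors' counting shared out reads from such runs was not tested. Read in the sense direction, no annotated transcript of another gene held a 50-base window of Rac1. For Cdc42, 3 processed pseudogenes each held at most 1.55% of its windows. Windows of Rac2 occurred in transcripts of several other genes, among them Paxip1, at up to 0.368% for each gene. The opposite direction was not searched, and the exons of Rac1 overlap those of Daglb on the opposite strand.

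Rac1 was by far the most abundant of the genes and the only 1 whose level differed between the genotypes by the test, where 8.36% of all tested genes did. It stood at 1922, 1770 and 1896 FPKM in the wild-type libraries and at 1374, 1334 and 1540 FPKM in the knock-in libraries. Every knock-in value lay under every wild-type value, and the genotypes were apart in this way, in either direction, for 30.7% of all tested genes. The group means were 1862 ± 81.0 and 1416 ± 109 FPKM (SD, n = 3 each), which made Rac1 1.32-fold lower in the knock-in. Its log2 fold change, on log2(FPKM + 1), was -0.40 (SE 0.09, 95% interval -0.60 to -0.20, limma adjusted p = 0.0291). As a share of all FPKM in a library, Rac1 was 0.271% to 0.294% in wild-type libraries, against 0.16% to 0.197% in the knock-in. The denominator of this share moved as well. Added over all genes, FPKM came to between 641278 and 708432 with the wild-type genotype and between 758381 and 856863 with the knock-in genotype. The lower share thus reflects this larger sum as well as Rac1 itself, and is not separate evidence of less Rac1. In bulk RNA, fewer cells that hold a transcript and less of it per cell cannot be told apart.

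The Rac1 gene lies on the minus strand of chromosome 5 at 143503634 to 143528036 (GRCm38), and GENCODE M21 annotates 2 coding transcripts with 576 and 633 coding bases before the stop codon. The longer form carries the extra exon known from the splice form Rac1b. The tables give 1 value per gene, so the splice forms were not separated. Rac1 exons overlap those of Daglb on the opposite strand over 2309 bases, and the library kits do not mark strand. Daglb was listed at 1.71 to 3.65 FPKM over the 6 libraries. The part of the shared bases in the Rac1 and Daglb values was not tested.

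The Rac1 difference kept its direction under each of 19 alternative analyses, with a log2 fold change between -0.52 and -0.31, but the call itself held under 10 and was lost under 9. It was lost without wild-type library 1, 2 or 3 (adjusted p = 0.0670, 0.0820 and 0.114 in limma), without knock-in library 2 or 3 (0.120 and 0.0665), with no filter on low values (0.0972), without the variance trend (0.149), with the replicate number as a block (0.0510) and after a trend with transcript length was taken out (0.0539). Without both libraries rich in haemoglobin mRNA, the log2 fold change was -0.35 and the limma adjusted p = 0.0326, and among the others Vav1 stood at -0.85 (0.165), Pak2 at 0.43 (0.440), Vav3 at -0.20 (0.740), Rac2 at 0.12 (0.812) and Cdc42 at 0.08 (0.612), the adjusted p in parentheses.

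Cdc42, the second most abundant, had nearly the same level in both genotypes. It stood at 316, 259 and 274 FPKM in the wild-type libraries, against 288, 290 and 272 FPKM in the knock-in. The knock-in values all lay inside the wild-type range. The means were 283 ± 29.8 and 283 ± 10.4 FPKM (n = 3, SD), and the log2 fold change of 0.01 had a 95% interval of -0.23 to 0.24 (limma adjusted p = 0.979). The interval leaves room for a difference of that size in either direction. Cdc42 lies on chromosome 4 at 137319696 to 137357720, minus strand, with 2 coding transcripts that are not separated in the tables.

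Rac2, the haematopoietic Rac, was scarce in these libraries. It stood at 3.05, 4.98 and 5.50 FPKM in the wild-type libraries, against 5.28, 5.02 and 6.64 FPKM in the knock-in. The ranges overlapped, and the test was not passed (log2 fold change 0.29, 95% interval -0.27 to 0.86, limma adjusted p = 0.516). Wild-type library 1 was the lowest, and without it the log2 fold change was 0.09, and without knock-in library 3 it was 0.19. Roughly 83 to 190 fragments lay behind each value, counted on the longest coding transcript. The gene lies on chromosome 15 at 78559167 to 78572783, minus strand. Neutrophils and other leukocytes are rich in Rac2. The neutrophil markers summed to 0.308 to 2.26 FPKM in wild-type libraries, against 0.429 to 1.90 in those of the knock-in, with 3 of 10 at 0 in all libraries. The T and NK cell markers, mostly Nkg7, summed to 2.67 to 4.42 FPKM for the wild type and 5.06 to 8.83 for the knock-in, with 7 of 11 at 0 throughout, and the B cell markers to 0 to 0.445 and 0.456 to 0.837 FPKM, with 4 of 8 at 0. Both of these sums were higher in every knock-in library than in any wild-type library. The genotypes were apart, in either direction, for 30.7% of all tested genes. The B cell sums lay near the floor, and Nkg7 was not called (limma adjusted p = 0.151). What part such cells had in the Rac2 values was not tested.

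**Figure D1:**
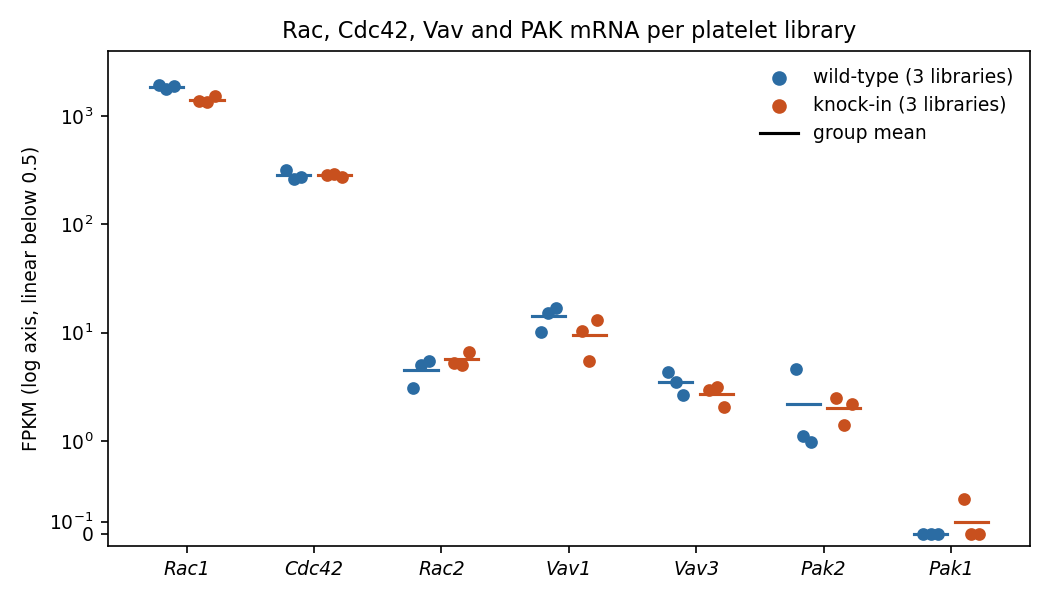
FPKM of the 7 genes in each of the 6 libraries, on a log axis that is linear below 0.5, with points for libraries and bars for group means. The 3 knock-in values of Rac1, between 1334 and 1540, lie under the 3 wild-type values, between 1770 and 1922, while the ranges of the other genes overlap, and Pak1 is at 0 in 5 of the 6 libraries.

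The exchange factor gene Vav1 was lower on average in the knock-in, without passing the test. It stood at 10.1, 15.2 and 17.0 FPKM in the wild-type libraries, against 10.3, 5.44 and 13 FPKM in the knock-in. Knock-in library 2 was the lowest, and wild-type library 1 lay inside the knock-in range. The log2 fold change came to -0.56 with an SE of 0.31 (adjusted p = 0.305 in limma), with a 95% interval from -1.27 to 0.15, so the data leave room both for a large difference and for none. Without knock-in library 2 it was -0.24. Roughly 140 to 460 fragments lay behind each value. Vav1 lies on chromosome 17 at 57279100 to 57328031, plus strand.

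Vav3, the broadly expressed relative that acts with Vav1 downstream of the collagen receptor, was lower than Vav1 in every library. It stood at 4.35, 3.53 and 2.67 FPKM in the wild-type libraries, against 2.96, 3.13 and 2.04 FPKM in the knock-in. The ranges overlapped (log2 fold change -0.28, 95% interval -0.85 to 0.29, limma adjusted p = 0.548), and omitting 1 library gave -0.15 (wild-type library 1), -0.14 (knock-in library 3) or -0.42 (wild-type library 3). Vav3 lies on chromosome 3 at 109340653 to 109685698, plus strand.

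Pak2 was the only PAK gene with signal in every library, and it was low. It stood at 4.56, 1.10 and 0.974 FPKM in the wild-type libraries, against 2.47, 1.39 and 2.17 FPKM in the knock-in. The highest and the lowest value both belonged to the wild type, so the spread within 1 genotype exceeded the difference between the means of 2.21 and 2.01 FPKM. The log2 fold change was 0.06 with a 95% interval from -0.89 to 1.01 (limma adjusted p = 0.949), so a difference of close to 2-fold in either direction is not distinguished from none. Roughly 51 to 230 fragments lay behind each value. Wild-type library 1 and knock-in library 1, the highest in their groups, were also those with the most haemoglobin mRNA, and the part of red cell RNA in the Pak2 values was not tested. Pak2 lies on chromosome 16 at 32016290 to 32079342, minus strand.

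Pak1, on the plus strand of chromosome 7 at 97788541 to 97912381, was listed at 0 in 5 libraries and at 0.289 FPKM in knock-in library 1. It lay under the limit of a mean of 1 FPKM and was not tested, which left 6 of the 7 genes in the test. A value of 0 from this kind of estimator may also mark an estimate that failed. The remaining PAK genes, named after their values were seen, were also near the floor: Pak3 and Pak7 were listed at 0 throughout, Pak4 reached 0.219 FPKM and Pak6 0.147 FPKM.

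Of the 6 genes tested, 1 was lower and 0 were higher in the knock-in at a limma adjusted p under 0.05, and 1 had an unadjusted p under 0.05, as 25.4% of all tested genes did. Over all 4859 genes tested, 8.36% were called, 3.99% lower and 4.36% higher (194 and 212 genes, but 255 and 178 after rescaling without erythroid and the most abundant genes). Rac1 was also the only 1 of the 6 whose genotypes did not overlap, where 30.7% of all tested genes did not. No member reached the 2-fold difference of group means named in the study's design, which 3.11% of all tested genes did. The median log2 fold change was -0.14 over the 6 and -0.01 over all tested genes.

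The order of levels was the same in both genotypes: Rac1, Cdc42, Vav1, Rac2, Vav3, Pak2 and Pak1. In the wild type the mean level of Rac1 was 6.58 times that of Cdc42, and the mean level of Cdc42 was 20 times that of Vav1. In the knock-in these ratios of means were 5 and 29.6. The 3 most abundant genes did not overlap each other in the wild type. Neighbours that did not differ beyond their spread were Rac2 with Vav3 and Vav3 with Pak2 in the wild type, and Vav1 with Rac2 and Vav3 with Pak2 in the knock-in.

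The balance within each pair of relatives was compared in single libraries. Rac2 made up 0.158%, 0.280% and 0.289% of the summed Rac1 and Rac2 FPKM in wild-type libraries, against 0.383%, 0.375% and 0.430% in the knock-in. The genotypes did not overlap (exact permutation test, two-sided, p = 0.1, the smallest that 3 against 3 libraries allow, and 0.3 after Benjamini-Hochberg adjustment over 3 shares). Rac2 was thus at most 0.430% of Rac mRNA in these libraries, and Rac3, the remaining Rac gene, was listed at 0 in all 6. With Rac1 as nearly all of the sum, the Rac2 share carries the lower Rac1. Rac2 alone overlapped between the genotypes (limma adjusted p = 0.516). The ratio of Rac1 to Cdc42 FPKM was 6.08, 6.84 and 6.92 in wild-type libraries, against 4.76, 4.59 and 5.67 in the knock-in, again without overlap, which restates the lower Rac1 against a level Cdc42. Vav1 made up 70.0%, 81.2% and 86.4% of Vav1 and Vav3 together in wild-type libraries, against 77.6%, 63.5% and 86.4% in the knock-in, and these ranges overlapped (exact permutation p = 0.6, adjusted 0.9). Vav2, the other Vav gene, was above 0 in 1 library only, at 0.120 FPKM. Rac3 and Vav2 were named after their values were seen. Pak1 had a share of PAK FPKM above 0 only in knock-in library 1, at 10.5% of Pak1 and Pak2 (exact permutation p = 1).

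**Figure D2:**
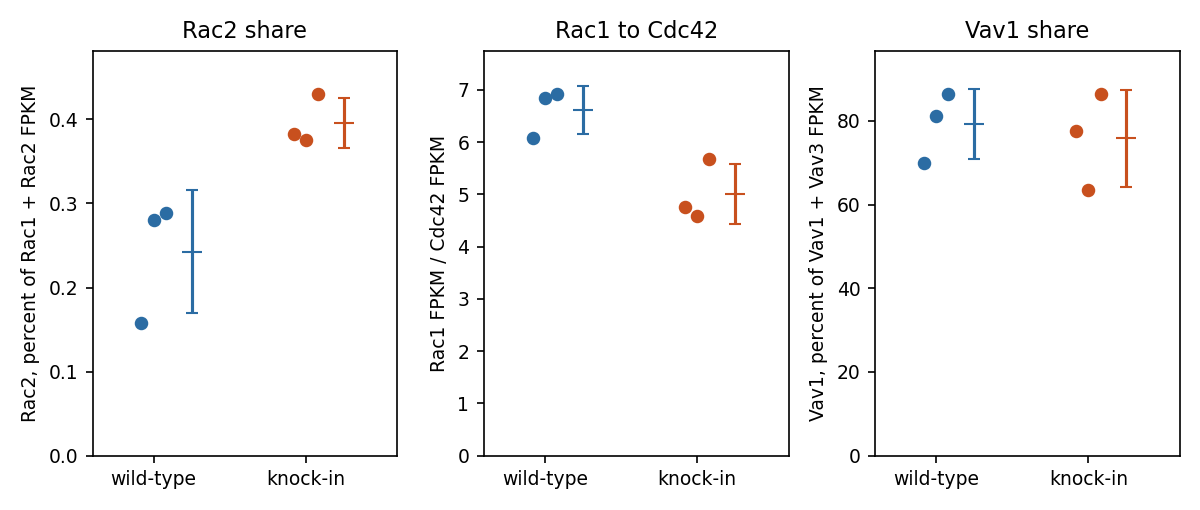
Rac2 as a percent of Rac1 and Rac2 FPKM, the ratio of Rac1 to Cdc42 FPKM, and Vav1 as a percent of Vav1 and Vav3 FPKM, with a point per library and the group mean ± SD beside the points (n = 3). The knock-in libraries lie above the wild type for the Rac2 share (0.375% to 0.430% against 0.158% to 0.289%) and under it for Rac1 to Cdc42, while the Vav1 shares overlap.

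The genes around them in the pathway were read from a list of 151 symbols sorted by role, of which 148 were in the tables and 17 were at 0 in all libraries. Leaving out the members, 58 were tested: 7 had a lower and 0 a higher level in the knock-in at the same threshold, or 12.1% called against 8.36% of all genes. Their median log2 fold change was -0.23 against -0.01 over all genes, and 44 of the 58, or 75.9%, lay below 0, against 51.5% of all tested genes. The 58 come from a list chosen with earlier results of these data known, and how far that choice shaped this contrast was not tested. Under the 3 other scalings of the libraries the median was between -0.29 and -0.21, and in no alternative was any of them called higher. The median was closer to 0 without knock-in library 1 (-0.13, with 39 of 58 below 0), with a pseudocount of 5 (-0.14, with 44) and after the length trend was taken out (-0.16, with 37). The number called lower depended strongly on the libraries: 2 without wild-type library 2 or 3, 3 on omitting knock-in library 2 and 0 on omitting the third (15 of the 58 at an unadjusted p under 0.05).

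Among the GTPases of this branch, Rhog fell and Rhoj was not called. Rhog, a Rac relative that activates Rac through DOCK exchange factors and ELMO, stood at 126, 148 and 142 FPKM in the wild-type libraries, against 93.1, 75.0 and 90.3 FPKM in the knock-in, without overlap. Its log2 fold change came to -0.68 with an SE of 0.12 (adjusted p = 0.0153 in limma), and the call was lost without wild-type library 2 or 3 (0.0687 and 0.0694) or knock-in library 2 or 3 (0.0618 and 0.0658), with no filter (0.0545) and without the variance trend (0.0759). Rhoj, a Cdc42 relative, was the most abundant gene of the group besides the members, at 313 ± 32.8 FPKM in wild-type libraries, against 313 ± 39.4 in those of the knock-in (n = 3, SD), with an adjusted p of 0.998 in limma. Counting Rhog and Rac1, which was already counted among the members, 2 of 5 tested GTPases fell and 0 rose. Over all tested genes, 3.99% were called lower and 4.36% higher.

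None of the 9 exchange factor genes tested was called, Vav1 and Vav3 included, where 8.36% of all tested genes were. An unadjusted p under 0.05 in limma was found for 2 of the 9, and for 25.4% of all tested genes. The median of the 9 was -0.28. The most abundant was Itsn2, an intersectin that activates Cdc42, at 25.8 ± 3.25 FPKM in wild-type libraries, against 24.7 ± 4.05 in those of the knock-in (n = 3, SD), a difference of -0.06 on the log2 scale with limma adjusted p = 0.863. Vav1 was thus less abundant than Itsn2 in every library. Itsn2 exons overlap those of other genes on the opposite strand.

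Of 6 tested genes for GTPase-activating proteins, which switch Rac and Cdc42 off, 1 fell, where 3.99% of all tested genes were called lower. Arhgap1, which encodes a Cdc42 inactivator, went from 33.9 ± 2.12 to 19.7 ± 4.16 FPKM (n = 3, SD), a difference of -0.78 on the log2 scale with limma adjusted p = 0.0331. The genotypes did not overlap, with the lowest wild-type value at 32.3 and the highest knock-in value at 23.0 FPKM. Its call was lost without any single wild-type library (adjusted p from 0.0656 to 0.126), without knock-in library 2 or 3 (0.0846 and 0.0932), under the block (0.0510), after length removal (0.0516), with no filter (0.0988) and without the variance trend (0.0795). Neither of the 2 tested GDP-dissociation inhibitor genes was called. Arhgdib, which holds Rac and its relatives in the cytosol of blood cells, was at a level near that of Rac1, at 1412 ± 99.6 and 1568 ± 166 FPKM (n = 3, SD), a difference of 0.15 on the log2 scale with limma adjusted p = 0.416.

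Beside the PAK kinases, the adaptor gene Nck2 fell. Nck proteins bring PAK and WASP to phosphorylated receptors at the membrane. Nck2 stood at 178, 228 and 194 FPKM in the wild-type libraries, against 117, 94.1 and 95.7 FPKM in the knock-in, so the lowest wild-type library was above the highest knock-in library. The log2 fold change came to -0.96 with an SE of 0.13 (1.95-fold, adjusted p = 0.00846 in limma), and 17 of 19 alternatives kept the call. It was lost without knock-in library 3 (0.0554) and without the variance trend (0.0623). Nck1, its relative, was far less abundant, at 2.1 to 2.66 FPKM in wild-type libraries, against 3.36 to 4.12 in those of the knock-in, and was not called (limma adjusted p = 0.171). The genes for the PAK scaffolds Git1 and Git2 and for the exchange factors Arhgef6 and Arhgef7 that bind PAK were all under 1 FPKM. Nck1 and these 4 genes were named after their values were seen.

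Among kinases further along, 1 of 5 tested genes fell, where 3.99% of all tested genes were called lower. Mapk14, which encodes the p38α kinase, stood at 120, 101 and 105 FPKM in the wild-type libraries, against 50.4, 59.1 and 55.1 FPKM in the knock-in. The genotypes were far apart, with a log2 fold change of -0.98 (SE 0.12, 1.97-fold, limma adjusted p = 0.00759), and the call was kept in 17 of 19 alternatives, all but those without knock-in library 3 (0.0554) and without the variance trend (0.0623).

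None of the 9 tested WASP and WAVE genes, whose proteins turn Cdc42 and Rac signals into actin branching, was called, where 8.36% of all tested genes were. An unadjusted p under 0.05 in limma was found for 2 of these 9 genes, and for 25.4% of all tested genes. The most abundant, the WAVE complex gene Nckap1, stood at 131 ± 6.03 and 110 ± 14.4 FPKM (n = 3, SD), a difference of -0.26 on the log2 scale with limma adjusted p = 0.216. Cyfip1, the WAVE subunit that binds Rac, lay just outside the threshold at 6.98 ± 0.766 and 3.31 ± 0.914 FPKM (n = 3, SD), with an adjusted p of 0.0505 in limma, and was named after its values were seen.

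Of 9 other tested genes for proteins that bind Rac or Cdc42, 1 fell, where 3.99% of all tested genes were called lower. Cdc42se2, which encodes a small Cdc42 effector, went from 61.2 ± 6.07 to 40.3 ± 3.79 FPKM (n = 3, SD), a difference of -0.59 on the log2 scale with limma adjusted p = 0.0297. That call was lost without wild-type library 2 or 3 (0.119 and 0.113) or knock-in library 2 or 3 (0.106 and 0.0719), with quantile normalization (0.0520), with no filter (0.0815) and without the variance trend (0.0866). Cyba, the membrane subunit of the Rac-dependent NADPH oxidase, was the most abundant of the group, at 305 ± 69.9 and 286 ± 16.6 FPKM (n = 3, SD), with an adjusted p of 0.852 in limma. The oxidase gene Cybb, also named after its values were seen, was under 1 FPKM in every library.

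Upstream of Vav, 2 of 14 tested genes fell and 0 rose, and 8 had an unadjusted p under 0.05. The called share was 14.3%, against 8.36% of all tested genes, and 25.4% of all tested genes had an unadjusted p under 0.05. Among the 8, Plcg2 was higher in the knock-in and the others were lower. Plcg2 stood at 0.273 to 2.62 FPKM in wild-type libraries, against 2.16 to 5.06 in those of the knock-in, with overlap. Its log2 fold change was 1.03 (unadjusted p = 0.0377 and adjusted p = 0.167 in limma), and it was named after its values were seen. Lcp2 encodes SLP-76, the adaptor to which Vav binds after receptor activation. It stood at 39.7, 41.2 and 48.4 FPKM in the wild-type libraries, against 20.7, 23.3 and 14.5 FPKM in the knock-in, without overlap. Its log2 fold change came to -1.12 with an SE of 0.19 (2.18-fold, adjusted p = 0.0124 in limma), and the call was lost without wild-type library 2 or 3 (0.0585 and 0.0601) or knock-in library 3 (0.0554), with no filter (0.0536) and without the variance trend (0.0623). Exons of Lcp2 overlap those of a transcript on the opposite strand. Fyn, a Src family kinase gene, went from 68.0 ± 1.15 to 47.9 ± 5.18 FPKM (n = 3, SD), a difference of -0.50 on the log2 scale with limma adjusted p = 0.0381. Its call was lost in 12 of 19 alternatives, among them the omission of any single library (adjusted p from 0.0598 to 0.130) and of both libraries rich in haemoglobin (0.0569). Lyn, the most abundant of the group, was at 344 to 364 FPKM in wild-type libraries, against 267 to 300 in those of the knock-in without passing the test (a log2 fold change of -0.33 with limma adjusted p = 0.0590). Its exons overlap a gene on the opposite strand over 248 bases.

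**Figure D3:**
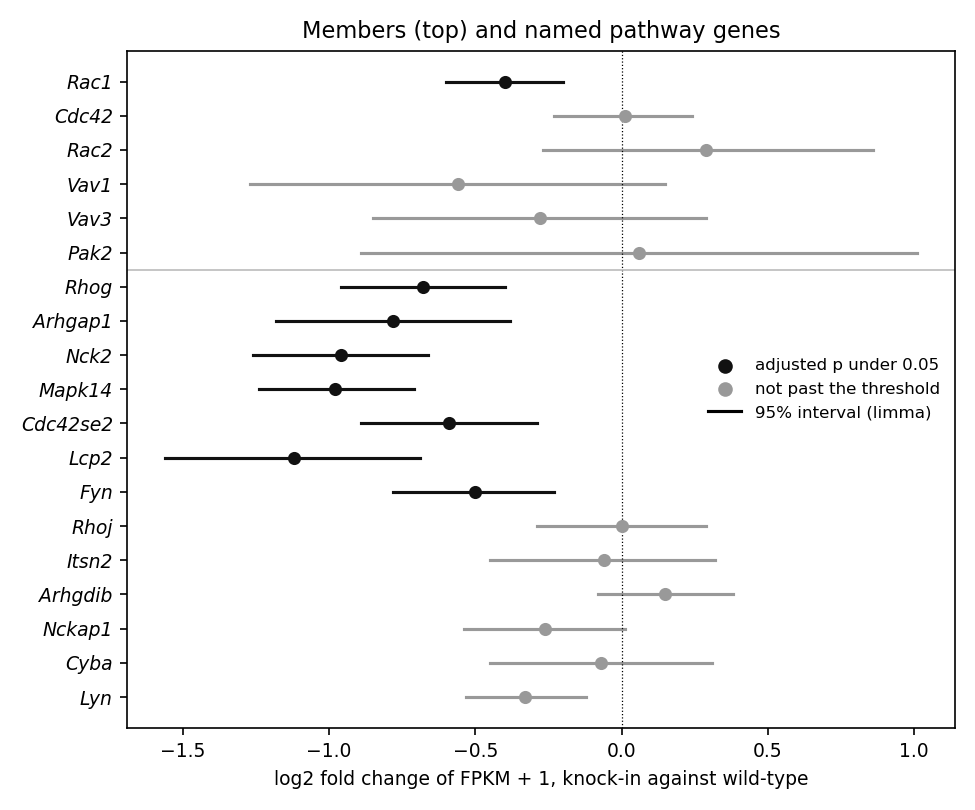
Log2 fold change of FPKM + 1 in knock-in against wild-type platelets (horizontal axis) with 95% intervals from limma (3 libraries per genotype), for the 6 tested members above the line and the named pathway genes under it, black where the adjusted p is under 0.05. Rac1 at -0.40 is the only black member, and Pak2 has the widest interval, from -0.89 to 1.01.

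**Figure D4:**
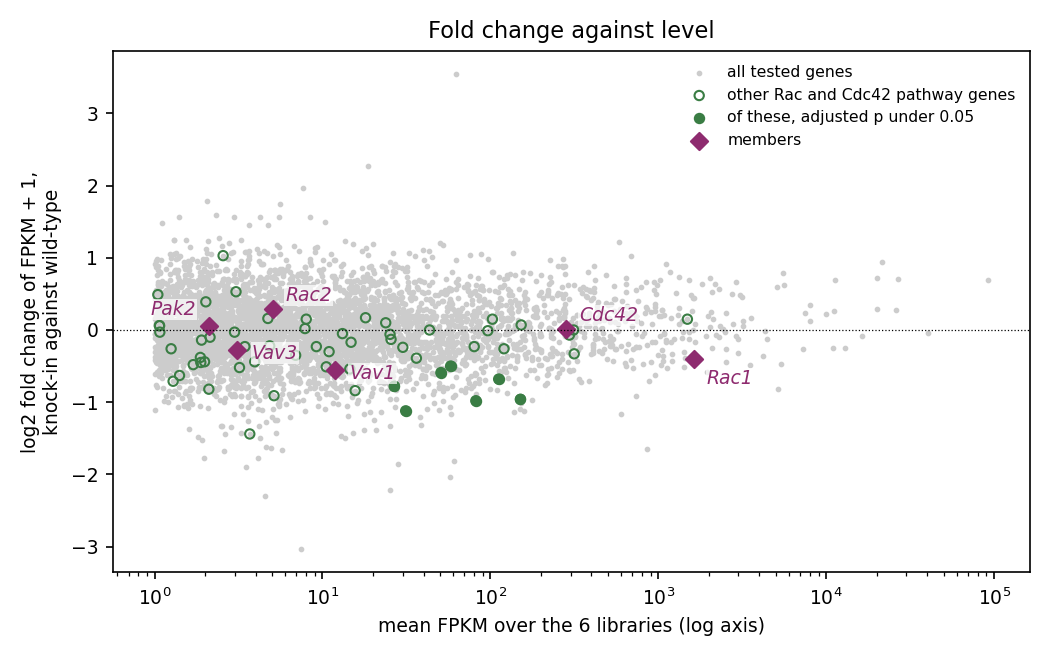
Log2 fold change of FPKM + 1 in knock-in against wild-type platelets (vertical axis) against the mean FPKM of the 6 libraries on a log axis, for all 4859 tested genes in grey, other pathway genes in green (filled where the adjusted p is under 0.05) and members as diamonds. The 7 filled pathway genes all lie below 0, and Rac1 lies at the abundant end of the plot while Rac2, Vav1, Vav3 and Pak2 lie in the wide band at low levels.

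To describe what the profiles of the members resembled, each was set beside all tested genes by the root-mean-square difference of centred log2(FPKM + 1) values over the 6 libraries. With 6 libraries and 4859 genes close matches are bound to exist, and they are given without a test. The profile nearest to Rac1 was that of Rab22a, an endosomal GTPase gene, at a difference of 0.034, where Rac1 itself varied about its mean by 0.211. Rab22a stood at 233 to 254 FPKM in wild-type libraries, against 176 to 195 in those of the knock-in (log2 fold change -0.39, limma adjusted p = 0.0379), and its call was lost in 10 of 19 alternatives. The second was Ppp2r1a, for a scaffold subunit of protein phosphatase 2A, at 0.049 (log2 fold change -0.43, limma adjusted p = 0.1). Cdc42 was nearest to Cd44, an adhesion receptor gene, and Rab10, a vesicle transport GTPase gene, both at 0.033, and neither was called (limma adjusted p = 0.998 and 0.843).

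The nearest profiles of the scarce members lay at larger differences, but these members also varied more. Their variation about the mean was between 0.252 (Vav3) and 0.511 (Pak2), against 0.091 for Cdc42 and 0.211 for Rac1. Rac2 was near to 2010107E04Rik (0.086), and Vav3 to Strap (0.085) and Hnrnpm (0.091). Vav1 was nearest to Ociad2 (0.142) and to Acly (0.153), which encodes ATP citrate lyase. Pak2 was nearest to Tnpo1, a nuclear import receptor gene (0.183), and Fbxo3 (0.191), which like Pak2 were highest in wild-type library 1, at 4.43 and 2.59 FPKM. None of the genes named in this group was called.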

How the data were processed

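The authors deposited 1 table of FPKM per library, with 24346 gene symbols. Per the labels' protocols, total RNA was reverse transcribed with the SMART-Seq HT kit, and Nextera XT served for the libraries. Cuffdiff 2.2.1, TopHat2 2.1.1, SAMtools 0.1.18 and Bowtie2 2.2.8 are listed with build mm10 per the submitters' processing notes, and settings and annotation are not given in the sources used here. Groups and replicate numbers came from the sample titles. Genes with a mean of at least 1 FPKM were tested on log2(FPKM + 1) in limma 3.58.1 (R 4.3.3), with genotype alone in the model, a variance trend and Benjamini-Hochberg adjustment over 4859 genes (threshold 0.05). Fold changes on that scale understate changes of low genes. The code was tested on simulated data.

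Fragments were estimated from genes over 2000 bases with 1 annotated transcript, where 69.6% to 79.7% of low values lay within 0.05 of a whole multiple, relative to that multiple. The value of 1 fragment was set from the 24 to 28 genes at the main peak of these same values. Such genes lie near a whole multiple by that choice, and the percentage expected without steps was not computed. The fragment numbers cover no amplification error, and the intervals cover only the part of it that varies among these libraries.

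Members and lists were chosen with earlier results of these data known. Named are the members, each pathway gene past the threshold, the most abundant of each role, and the 2 nearest profiles per member, of which 1 is not reported here. Alternatives varied the pseudocount, filter, scaling, variance model, block, length trend, call rule and libraries. Leaving out both libraries rich in haemoglobin was chosen after seeing the data.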

Additional observations from a re-analysis of the deposited data

How the results depend on the processing

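Against 406 genes called over all genes, the count was 107 with no filter on low values, 0 without the variance trend (1197 at an unadjusted p under 0.05 in limma), 678 without both libraries rich in haemoglobin, 151 by the 2-fold rule, and 0 to 589 without single libraries; omitting wild-type library 2 gave 41, omitting the third wild-type library 90, omitting knock-in library 2 gave 79 and omitting the third knock-in library 0 (1002 at an unadjusted p under 0.05). The count of members called, 1, became 0 with no filter, without the variance trend, under the replicate block, after removal of the length trend and by the 2-fold rule, and was 0 to 1 without single libraries. The 7 other pathway genes called became 2 with no filter, 0 without the variance trend (20 at an unadjusted p under 0.05), 11 with sample weights, 2 by the 2-fold rule and 0 to 9 without single libraries.

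With the replicate number as a block, 306 genes were called over all genes, 5 pathway genes were called, and the Rac1 log2 fold change of -0.40 had a limma adjusted p = 0.0510. The numbers were not taken as pairs in the main fit, and whether same-numbered libraries share a batch was not tested. Deviations of same-numbered libraries from their group means correlated at 0.158, 0.0235 and 0.141, against -0.16 to 0.0674 for different numbers. Of the 6 libraries, 5 correlated best with the other genotype's library of the same number.

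Values near 0 changed sign, none of them called in either analysis. Cdc42 was -0.05 once libraries were rescaled to genes other than erythroid and very abundant ones, -0.06 with quantile normalization, and Pak2 -0.01 with a pseudocount of 5. Rhoj was 0.02 with median-of-ratios scaling, 0.07 with sample weights, 0.09 after length removal and 0.18 without both libraries rich in haemoglobin. Itsn2 was 0.02, 0.05 and 0.17 under the latter 3 of these. Cd44 was -0.06 after rescaling and -0.01 with quantile normalization, Rab10 -0.02 after rescaling, and 2010107E04Rik -0.02 without both libraries. Fbxo3 was 0.01 with sample weights, 0.02 after length removal and 0.13 without both libraries. Without single libraries the log2 fold changes ranged from -0.05 to 0.09 for Cdc42, -0.20 to 0.54 for Pak2, 0.09 to 0.43 for Rac2, -0.80 to -0.24 for Vav1, -0.42 to -0.14 for Vav3, -0.08 to 0.11 for Rhoj, -0.14 to 0.07 for Itsn2, -0.27 to 0.05 for Cyba, -0.04 to 0.06 for Cd44, -0.0016 to 0.11 for Rab10, -0.08 to 0.29 for 2010107E04Rik, -0.34 to 0.03 for Strap, -0.11 to 0.36 for Tnpo1 and -0.28 to 0.31 for Fbxo3. The difference in share, knock-in minus wild type in percentage points, ranged from -8.63 to 2.83 for Vav1, 0 to 5.23 for Pak1 and 0.111 to 0.176 for Rac2, and was -0.165 for Pak1 on FPKM + 1. The causes were not tested. At the estimated depth, low members such as Pak2 and Vav3 rest on an estimated 51 to 230 and 97 to 190 fragments a library. The part of these numbers in the width of their intervals was not tested.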
